A study of Mus musculus with 8 samples.

Results

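RNA-seq values of 10 genes for secreted or transported epithelial defense proteins were compared between 2D- and 3D-cultured mouse adipose-derived stem cells (ADSCs). The genes were Lcn2, Ltf, Clu, Wfdc2, Slpi, Pigr, Lyz1, Lyz2, Reg3g and Chil1, taken by symbol from 24346 listed genes, and all 10 were listed. They were chosen with their difference between the cultures already known. The 2D and 3D levels of these 10 genes are therefore given as a description, without a test. Reg3g was listed at 0 in every library, so 9 of the 10 genes had a value above 0 in at least 1 library.

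Each of the 8 libraries came from a primary culture of WT BALB/c mice, prepared from the gonadal adipose tissue of adult males. Mice 2, 3, 4 and 5 supplied the 4 2D libraries. Mice 1, 4, 5 and 7 supplied those of the 3D cultures, and only mice 4 and 5 are thus represented in both. The 3D cultures grew as organoids in Matrigel, a basement membrane gel, and the medium behind each sequenced library is not given in the sources used here. Culture format, matrix and medium cannot be told apart in this design. The short label of the 3D library of mouse 1 differs in form from those of the other 3D libraries.

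Mucosal surfaces and ducts are covered by a fluid that epithelial cells load with proteins acting against microbes. Some of these proteins withhold iron, as lipocalin 2 (Lcn2) does by binding bacterial siderophores and lactoferrin (Ltf) by binding iron itself. Lysozymes cut the bacterial cell wall, and small proteins with WAP domains such as Slpi restrain proteases. Several of these genes are also expressed in neutrophils or macrophages, so markers of those cells were read beside them.

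The values are FPKM, and the depth estimated from the steps between low values was 16.4 to 17.3 M fragments in the 2D libraries and 14.5 to 15.5 M in the 3D libraries. Levels per library are deposited FPKM. Differences are 3D minus 2D on the log2(FPKM + 1) scale after quantile normalization, which understates the change of low genes. Limma's test over 18862 genes called 21.2% of them higher and 20.3% lower in 3D at an adjusted p below 0.05, so a call is common in these data. The labelled cell type is mesenchymal stem cells. The 12 stromal marker genes summed to 2172 to 5495 FPKM in 2D but to 5.21 to 10.2 FPKM in 3D, where 10 of the 12 were below 1 FPKM in every library. Those at 5 FPKM or more on average in 2D were Col1a1, Col1a2, Col3a1, Pdgfra, Pdgfrb, Dcn, Twist1, Prrx1, Zeb1, Zeb2 and Postn, and Twist1 alone was so in 3D. The 16 epithelial marker genes summed to 32.8 to 783 FPKM in 2D and to 2467 to 2959 FPKM in 3D, where Epcam, Cdh1, Krt7, Krt8, Krt18, Krt19, Cldn3, Cldn4, Cldn7, Esrp1, Grhl2, Elf3, Crb3 and Rab25 each averaged 5 FPKM or more. In such bulk RNA, fewer cells of a type and less RNA per cell cannot be told apart.

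Together the 10 genes held 2.04% ± 0.393 (SD, n = 4) of the FPKM total of the 21984 genes of at least 300 nt in 3D, and at most 0.0124% in any 2D library. Lcn2 and Clu made up between 86.7% and 93.1% of that sum in the 3D libraries. By their 3D means the order was Lcn2, Clu, Ltf, Wfdc2, Pigr, Chil1 and Slpi, with Lyz1, Lyz2 and Reg3g at 0. Every 3D library of Clu lay above every one of Ltf, and every one of Slpi above 0, whereas the ranges of the other neighbours overlapped between mice. Within a library, Pigr was above Chil1 in 4 of 4, while Lcn2 was above Clu, Ltf above Wfdc2, and Wfdc2 above Pigr in 3 of 4 each, and Chil1 above Slpi in 1 of 4.

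**Figure D1:**
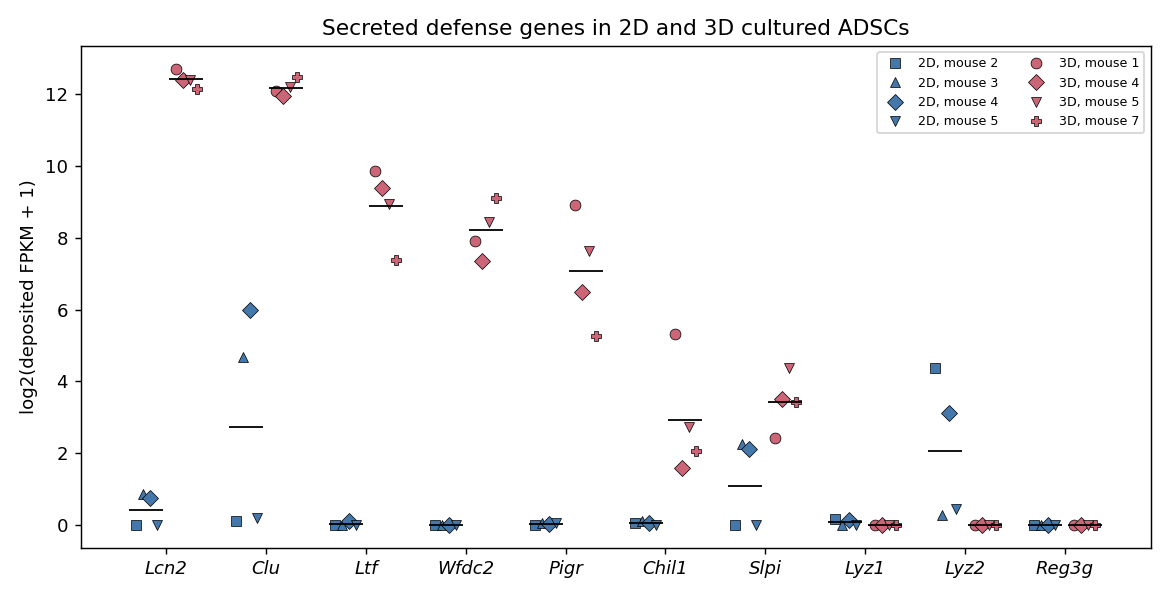
Deposited FPKM of the 10 genes on the log2(FPKM + 1) scale (y axis), by gene (x axis), with 1 point per library, blue for 2D and red for 3D, a symbol for each mouse and a black line at the mean of the 4 libraries. Lcn2 and Clu stand highest in 3D, at means of 5530 and 4724 FPKM, while Lyz2 is above 0 in the 2D libraries alone.

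Lcn2 and Ltf both act on iron. Lcn2, on chromosome 2 (32384633 to 32388252, minus strand, GRCm38), was listed at 0 in the 2D libraries of mice 2 and 5 and at 0.812 and 0.691 FPKM in those of mice 3 and 4. In 3D it was at 6736, 5391, 5440 and 4552 FPKM in mice 1, 4, 5 and 7. It thereby ranked between 3 and 6 among the 21984 genes in each 3D library, and the 3D libraries differed from each other by at most 1.48-fold. The difference was 11.99 over all libraries, 11.45 within mouse 4 and 13.01 within mouse 5. Quantile normalization set the 3D libraries of mice 4 and 5 further apart, at 4717 and 8252 against 5391 and 5440 FPKM as deposited. The highest 2D value corresponds to about 18.9 fragments and the lowest 3D value to about 97060, both from the estimated depth.

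Ltf, on chromosome 9, was at 0 in 3 of the 2D libraries and at 0.0861 FPKM in that of mouse 4, about 4.08 fragments. Its 3D levels were 936, 667, 489 and 165 FPKM in mice 1, 4, 5 and 7. All 3D libraries lay far above the 2D libraries, with a difference of 9.11, but they varied among themselves by 5.68-fold, with mouse 7 lowest.

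The promoter sequences of 4 genes with large differences are printed because these genes were near 0 in 2D and at 37.6 FPKM or more in every 3D library. They are the 250 bases before the RefSeq start site (GRCm38.p6), 5′ to 3′ on the gene's strand, at chr2:32387740-32387989 (Lcn2, minus), chr9:111019042-111019291 (Ltf, plus), chr2:164562465-164562714 (Wfdc2, plus) and chr1:130826434-130826683 (Pigr, plus). Capitals mark letters that match any of 3 motifs searched on both strands, namely GGG and CC set 5 bases apart for NF-kappaB, TTNNGNAAT for C/EBP and AGGAAG for ETS factors, and overlapping NF-kappaB matches in Ltf and Pigr run together. The stretches of Lcn2 and Wfdc2 and the end of that of Ltf lie inside the GENCODE spans of these genes.
Lcn2: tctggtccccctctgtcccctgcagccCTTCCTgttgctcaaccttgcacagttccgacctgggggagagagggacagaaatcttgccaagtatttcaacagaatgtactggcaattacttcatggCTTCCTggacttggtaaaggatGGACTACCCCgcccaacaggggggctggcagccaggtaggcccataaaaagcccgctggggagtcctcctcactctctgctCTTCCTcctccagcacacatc
Ltf: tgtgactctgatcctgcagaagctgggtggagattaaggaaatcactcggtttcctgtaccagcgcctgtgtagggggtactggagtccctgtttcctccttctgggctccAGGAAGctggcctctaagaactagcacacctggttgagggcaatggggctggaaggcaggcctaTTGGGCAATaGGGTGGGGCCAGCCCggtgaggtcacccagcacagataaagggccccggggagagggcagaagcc
Wfdc2: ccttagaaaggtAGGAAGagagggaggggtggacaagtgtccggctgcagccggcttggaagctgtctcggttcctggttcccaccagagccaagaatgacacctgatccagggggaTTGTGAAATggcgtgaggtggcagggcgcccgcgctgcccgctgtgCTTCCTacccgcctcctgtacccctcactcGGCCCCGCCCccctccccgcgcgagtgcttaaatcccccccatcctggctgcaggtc
Pigr: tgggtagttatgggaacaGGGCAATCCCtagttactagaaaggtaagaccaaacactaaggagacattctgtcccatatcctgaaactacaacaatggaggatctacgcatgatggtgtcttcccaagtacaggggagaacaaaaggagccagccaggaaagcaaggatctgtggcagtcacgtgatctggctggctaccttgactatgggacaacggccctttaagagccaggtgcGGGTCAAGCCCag

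The table of promoters held 9 of the 10 genes. The NF-kappaB letters were found in 6 of these 9 and in 45.8% of the 32851 promoters searched, the C/EBP letters in 4 of 9 and 10.2%, and the ETS letters in 6 of 9 and 29.5%. Lcn2 held 3 ETS matches and 1 NF-kappaB match. Pigr held NF-kappaB matches only, and Slpi C/EBP matches only. A match describes the letters and is not evidence of a bound site.

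Clu codes for clusterin, a secreted chaperone found in many body fluids. Located on chromosome 14 (65968483 to 65981547, plus strand), it had the highest 2D level of the 10 members, but not in every 2D culture. The 2D libraries of mice 2 and 5 were at 0.0719 and 0.145 FPKM, and those of mice 3 and 4 at 24.4 and 62.3 FPKM. The 3D libraries were at 4384, 3969, 4748 and 5797 FPKM in mice 1, 4, 5 and 7, so that the cultures did not overlap and the 3D mean was 217 times the 2D mean. The difference of 9.42 hid unequal starting levels, since it was 5.78 within mouse 4 and 12.19 within mouse 5. The 3D libraries themselves differed by 1.46-fold, the smallest ratio of highest to lowest among the 7 members detected in 3D.

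The WAP domain genes Wfdc2 and Slpi lie near each other on chromosome 2, at 164562413 to 164568510 and 164354070 to 164389095. Wfdc2, known as a serum marker of ovarian carcinoma under the name HE4, was listed at 0 in all 4 2D libraries. In 3D it was at 243, 164, 350 and 554 FPKM in mice 1, 4, 5 and 7. Against 3 fragments per library at the estimated depth, its 3D mean was at least 1341-fold higher, and still 1032-fold when mouse 7, its highest, was left out.

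Slpi, an inhibitor of neutrophil elastase, was at 0 in the 2D libraries of mice 2 and 5 and at 3.74 and 3.33 FPKM in those of mice 3 and 4. The 3D levels were 4.33, 10.4, 19.9 and 9.74 FPKM in mice 1, 4, 5 and 7, a mean of 6.28 times that in 2D. The lowest 3D library thus stood close to the highest 2D library, and after quantile normalization the cultures overlapped. Its span holds the microRNA gene Mir7678, which is listed as a gene of its own, so the values of Slpi carry that uncertainty.

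Pigr codes for the receptor that carries polymeric immunoglobulins across epithelial cells to the lumen. On chromosome 1 (130826684 to 130852249, plus strand), it was at most 0.0457 FPKM in any 2D library, about 2.99 fragments. In 3D it was at 480, 89.8, 197 and 37.6 FPKM in mice 1, 4, 5 and 7. All 3D libraries were above all 2D libraries, with a difference of 7.31, yet the 3D libraries spanned 12.8-fold. Jchain, the chain that joins the immunoglobulins that Pigr carries, and the other 5 B and plasma cell markers were below 1 FPKM in every library.

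Chil1, a chitinase-like protein without chitinase activity, rested mainly on 1 library. It was at most 0.0760 FPKM in 2D and at 38.8, 1.97, 5.61 and 3.18 FPKM in mice 1, 4, 5 and 7 of the 3D group. Its 3D mean was 12.4 ± 17.7 FPKM (SD, n = 4) with the library of mouse 1 and 3.59 FPKM without it. The difference was 2.83 over all libraries and 1.93 without that library, and the cultures did not overlap.

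The plot of the 3D libraries relative to their mean shows that the members did not share an order of mice. Lcn2, Ltf, Pigr and Chil1 were highest in mouse 1. Clu and Wfdc2 were highest in mouse 7 and lowest in mouse 4, and Slpi was highest in mouse 5 and lowest in mouse 1. The level in mouse 1 was 12.8 times that in mouse 7 for Pigr and 5.68 times for Ltf, but 0.438 times for Wfdc2. With 4 libraries these orders are a description, and the part of the mouse, the culture or the library in them was not tested.

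**Figure D2:**
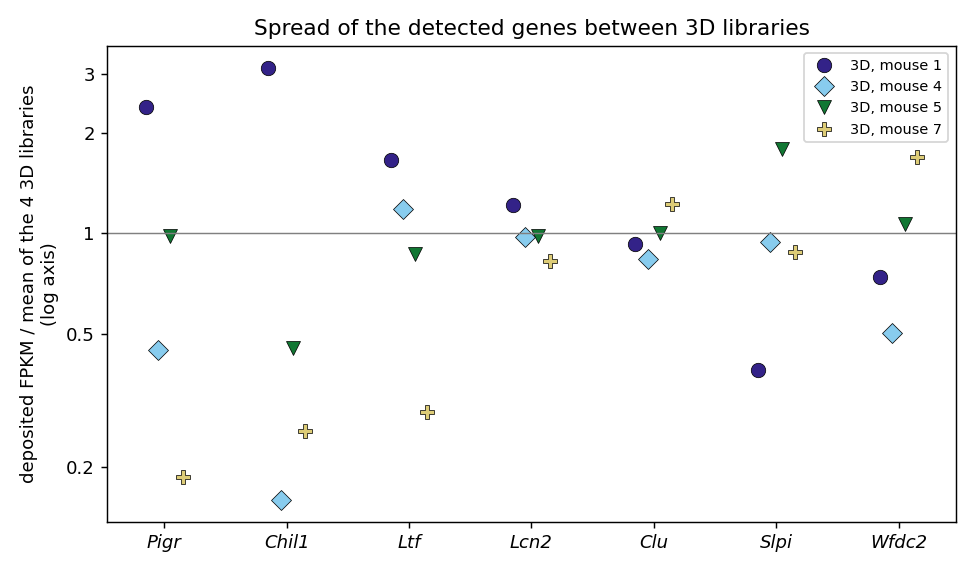
Deposited FPKM in each 3D library divided by the mean of the 4 3D libraries (y axis, log scale) for the 7 members detected in 3D (x axis), with a symbol and colour for each mouse. Points of Lcn2 and Clu lie within a 1.48-fold range, while those of Chil1 span 19.7-fold with mouse 1 highest.

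Of the lysozyme genes, only Lyz2 could be seen to go the other way. Lyz2, the lysozyme of macrophages and other myeloid cells, on chromosome 10 (117277331 to 117282321, minus strand), was at 19.6, 0.203, 7.76 and 0.346 FPKM in mice 2, 3, 4 and 5 of the 2D group. It was listed at 0 in all 4 3D libraries. Against 3 fragments it was at least 44.2-fold lower in 3D, and 17.6-fold when mouse 2 was left out of the 2D mean. The 2D values of mice 3 and 5 were only about 4.53 and 7.45 fragments, so that mean rests mainly on mice 2 and 4. The neighbouring Lyz1, the Paneth cell lysozyme, was at most 0.110 FPKM in 2D, about 2.31 fragments, and at 0 in 3D, so this depth could not show a difference. Reg3g, a lectin of the intestinal epithelium that acts on Gram-positive bacteria, stayed at 0 in all 8 libraries, where 3 fragments would give between 0.0831 and 0.0993 FPKM.

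The GENCODE transcripts of Lyz1 and Lyz2 were identical at 92.0% of 1317 aligned positions, with 51 mismatches and 55 gap positions. Whether reads were exchanged between the 2 genes was not tested. The 120 bases before each RefSeq start site, at chr10:117292869-117292988 and chr10:117282273-117282392 on the minus strand (GRCm38.p6), are printed to show how alike the gene pair is upstream of these sites. The end of the Lyz2 stretch, with nearly all of the bases shared in a row, lies inside the GENCODE span of Lyz2, which starts further upstream. Capitals mark the 9 positions at which they differ, and the last 50 bases are identical.
Lyz1: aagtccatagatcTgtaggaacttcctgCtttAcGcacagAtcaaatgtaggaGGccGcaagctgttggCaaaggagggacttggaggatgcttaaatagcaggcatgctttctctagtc
Lyz2: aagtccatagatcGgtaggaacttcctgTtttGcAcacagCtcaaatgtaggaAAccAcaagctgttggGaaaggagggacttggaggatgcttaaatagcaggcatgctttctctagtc

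Macrophage markers differed in direction from each other. C1qa, C1qb, C1qc, Tyrobp and Adgre1, picked from the macrophage list after their values were seen, summed to 4.12 FPKM in mouse 2 and to 1.02 FPKM in mouse 4 of the 2D group, which had the most Lyz2, and were at 0 in the other 6 libraries. All 14 macrophage genes summed to 1.17 to 6.78 FPKM in 2D and to 7.43 to 38.8 FPKM in 3D, where Cd68 and Csf1r together made up 7.07 to 38.6 FPKM while Adgre1, C1qa, C1qb, C1qc, Cd163, Tyrobp and Laptm5 were at 0 in all 4. Cd68 rose from between 0.562 and 2.86 FPKM in 2D to between 6.66 and 32.3 FPKM in 3D (limma's adjusted p = 0.0133), while Lyz2 was at 0 in 3D. The part of such cells in the level of Lyz2 was not tested. Among 13 listed neutrophil markers, Elane, Ctsg and S100a9 were at 0 in all 8 libraries, and the sum was 1.49 to 5.53 FPKM in 2D and 0.722 to 4.56 FPKM in 3D, while Lcn2 and Ltf, which neutrophil granules also hold, stood at the 3D levels given above.

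Within 2D, Clu, Slpi and Lcn2 were highest in the libraries of mice 3 and 4. Keratins of simple epithelia differed between these libraries in unlike ways. Krt8 was at 27.8 and 296 FPKM in mice 3 and 4 but at 0 and 0.0363 FPKM in mice 2 and 5, and Krt18 was at 129 and 287 FPKM against 2.28 and 0. Krt7 was at 2.13, 2.78, 74.7 and 2.95 FPKM in mice 2, 3, 4 and 5, and Krt19 at 27.9, 33.2, 125 and 30.9 FPKM, so both were high in mouse 4 alone and Krt19 was present in all 4. Epcam, an epithelial adhesion molecule, was at 0 in the 2D libraries of mice 3 and 4, and Cdh1 was at 0.343 and 0.725 FPKM. The part of any difference between the 2D cultures in the levels of Clu, Slpi and Lcn2 was not tested.

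**Figure D3:**
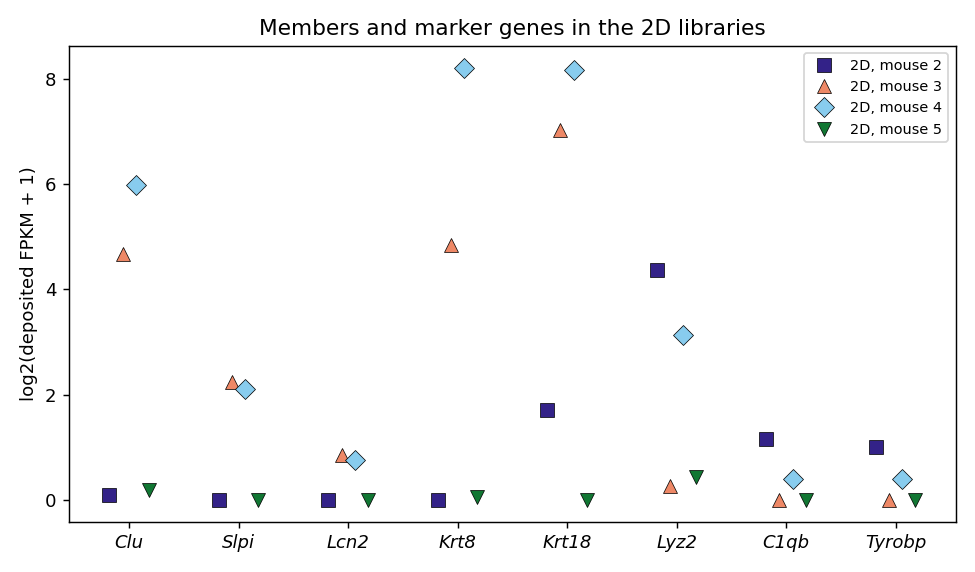
Deposited FPKM on the log2(FPKM + 1) scale (y axis) in the 4 2D libraries for members and marker genes (x axis), with a symbol and colour for each mouse. Clu, Slpi, Lcn2, Krt8 and Krt18 are highest in mice 3 and 4, whereas Lyz2, C1qb and Tyrobp are highest in mouse 2, with mouse 4 next. The plotted markers are only a part of the epithelial and macrophage lists. Others, not plotted, differed: Krt7 and Krt19 were high in mouse 4 alone, and Cd68, Csf1r and Fcer1g were highest in mouse 4.

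Of the 10 members, 6 lay above all 2D libraries in every 3D library after quantile normalization (Lcn2, Clu, Ltf, Wfdc2, Pigr and Chil1) and Lyz2 lay below. Over all 18862 genes, 21.6% lay wholly above and 20.9% wholly below. Because the members were chosen on this contrast, nothing is read from their count. The median difference of the 10 members was 5.07.

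To see whether related defense genes moved as well, 4 lists that hold no member were tested in the fit over all genes. The lists were written with earlier results of these data known, so their shares of calls are not an independent check. The first list held 50 relatives by family (lipocalins, WAP domain genes, lysozymes, Reg genes, chitinases and transferrins), of which 2 were not used here, 26 were at 0 in every library and 22 entered the fit. Limma called 4 higher (18.2%) and 1 lower (4.55%) at an adjusted p below 0.05, against 21.2% and 20.3% of all genes, and their median difference was 0.03 against 0.00. Neither share was above that of all genes, but many of the 22 were near 0 FPKM, where few calls can be made. The shares are therefore not read as a result about the list. With a mean of at least 1 FPKM, 3 relatives were called higher and 0 lower, against 3542 and 3461 of 12577 genes. Only the relatives Wfdc15b, Wfdc18, Chia1, Trf and Ctbs averaged that much. These counts come from so few genes that they are not read either.

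The called relatives were mostly low. Wfdc15b, a further WAP domain gene on chromosome 2, was at 0 in 2D and at 13.5, 4.01, 11.02 and 8.09 FPKM in mice 1, 4, 5 and 7 of the 3D group, at least 25.2-fold higher (limma's adjusted p = 2.2e-04). Chia1, an acidic chitinase, was at 0 in 2D and between 0.711 and 3.12 FPKM in 3D (adjusted p = 0.0026 from limma). Wfdc3 and Chil4 also rose, but stayed at or below 2.10 and 0.355 FPKM. Apod, a lipocalin that carries lipids, was at 0.218 to 1.95 FPKM in 2D and at most 0.0366 in 3D. Its limma adjusted p of 0.0355 became 0.0717 to 0.0765 without any 1 library other than the 2D libraries of mice 3 and 4. The 6 Reg genes other than Reg3g, and the lipocalins Lcn5, Lcn9 and Lcn12, were at 0 in every library.

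The second list held 60 other antimicrobial and defense effectors, of which 23 were at 0 in every library and 37 were tested. Limma called 5 higher (13.5%) and 4 lower (10.8%), with a median difference of -0.03. Both shares were below those of all genes, but many of the 37 were near 0 FPKM, where few calls can be made. These shares are therefore not read as a result about the effectors. Once low genes averaging under 1 FPKM were dropped, 6 effectors were called higher and 3 lower, against 3542 and 3461 of 12577 genes. The effectors that passed this filter were Sftpd, Cd14, Pglyrp1, Defb29, Ccl28, Rnase4, Ptx3, Ang, Cst3, Lgals3, Lgals9, Adm, Steap4, Hp, Saa3 and S100a8. Only these are behind those counts, so the counts are not out of the 37. The largest rise was in Sftpd, surfactant protein D, a lectin that binds microbial sugars. It was at 0, 0, 0.148 and 0 FPKM in mice 2, 3, 4 and 5 of the 2D group and at 43.6, 150, 356 and 376 FPKM in mice 1, 4, 5 and 7 of the 3D group, a difference of 7.72 (standard error 0.68, limma's adjusted p = 9.9e-05). Its lowest 3D library was that of mouse 1, in which Pigr, Ltf and Chil1 were highest.

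Cd14, a receptor for bacterial lipopolysaccharide, rose from 4.70 ± 2.17 to 95.0 ± 26.3 FPKM (SD, n = 4), a difference of 4.30 (limma's adjusted p = 2.4e-05). Pglyrp1, which binds peptidoglycan, was at most 0.127 FPKM in 2D and between 3.57 and 17.05 FPKM in 3D (difference 2.96, limma's adjusted p = 0.0024). Defb29, a beta-defensin, was at 0 in 2D and between 1.42 and 7.99 FPKM in 3D (limma's adjusted p = 0.0055). Ccl28, a mucosal chemokine with antimicrobial activity, rose to between 1.38 and 8.86 FPKM. Its limma adjusted p of 0.0233 became 0.0545, 0.0527 and 0.0563 when mouse 2 or mouse 4 of the 2D group, or mouse 5 of the 3D group, was left out. Without the 3D library of mouse 1, the list had 8 higher genes instead of 5, the added ones being Lpo, Lgals3 and Lgals9.

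Among those that fell, Rnase4 went from 140 ± 41.9 to 22.0 ± 5.49 FPKM (SD, n = 4), a difference of -2.27 (limma's adjusted p = 3.1e-04). Ptx3, a soluble pattern recognition molecule, went from 12.1 ± 7.23 to 2.00 ± 0.745 FPKM (SD, n = 4; limma's adjusted p = 0.0135). As deposited, its 2D library of mouse 5, at 2.33 FPKM, lay within the 3D range of 0.977 to 2.77 FPKM. The 3D library of that mouse was the highest of the 3D libraries. Ang, an RNase that shares its locus with Rnase4, and Slc11a1 also fell, with limma adjusted p-values of 0.0293 and 0.0255, but Slc11a1 was at most 0.213 FPKM. Both missed the threshold, at 0.0522 to 0.0719, without any 1 of several libraries, so that 2 of the 4 falls remained without the 2D library of mouse 2 or the 3D library of mouse 4 or 5. As deposited, the cultures overlapped for both. Ang was at 5.45 FPKM in 2D mouse 3 and 7.15 FPKM in 3D mouse 7. Slc11a1 was at 0.0551 FPKM in 2D mouse 5 and 0.0582 FPKM in 3D mouse 7. The peroxidase and oxidase genes Lpo, Duox1 and Duox2, cathelicidin (Camp) and the trefoil factors Tff1, Tff2 and Tff3 were at most 1.95 FPKM in any library.

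The third list held 32 sensors and regulators that are known to act upstream of defense genes, and all 32 were tested. Limma called 8 higher (25%) and 4 lower (12.5%), against 21.2% and 20.3% of all genes, with a median difference of 0.36. The largest differences were those of the epithelial ETS factors Ehf and Elf3. Ehf was at 0 in all 2D libraries and at 83.1, 122, 87.8 and 101 FPKM in mice 1, 4, 5 and 7 of the 3D group, at least 2121-fold higher (limma's adjusted p = 4.8e-08). Elf3 was at 0 in 2D and between 60.0 and 116 FPKM in 3D, at least 928-fold higher (limma's adjusted p = 6.8e-07). The listed gene Gm26642 overlaps Elf3, so its reads could be shared.

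Il17re, a receptor subunit for the epithelial cytokine IL-17C, rose from 0.655 ± 0.924 to 16.1 ± 1.75 FPKM (SD, n = 4), a difference of 3.52 (limma's adjusted p = 2.2e-04). Its partner subunit Il17ra went from 8.82 ± 2.16 to 5.59 ± 0.711 FPKM (SD, n = 4; limma's adjusted p = 0.0172). As deposited, Il17ra was at 6.24 FPKM in 2D mouse 3 and at 6.31 FPKM in 3D mouse 4, so the cultures overlapped. Of the Toll-like receptors, Tlr3, a sensor of double-stranded RNA, rose from 1.76 ± 0.572 to 26.4 ± 11.1 FPKM (SD, n = 4) and Tlr2 from 0.359 ± 0.272 to 4.42 ± 1.02, with limma adjusted p-values of 3.6e-04 and 4.6e-04. Tlr6, a partner of Tlr2, fell from 0.543 ± 0.129 to 0.170 ± 0.306 FPKM (SD, n = 4; limma's adjusted p = 0.0144, or 0.0653 without quantile normalization). The 3D library of mouse 1, at 0.629 FPKM, lay within the 2D range of 0.420 to 0.717 FPKM.

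Nod1, a sensor of peptidoglycan fragments, was at 3.87, 32.4, 32.3 and 4.62 FPKM in mice 2, 3, 4 and 5 of the 2D group, and between 1.53 and 1.67 FPKM in 3D (limma's adjusted p = 0.0139). It was thus higher in the same 2D libraries as Clu and Slpi. The adaptor Myd88 fell from 14.2 ± 3.13 to 9.76 ± 1.60 FPKM (SD, n = 4) with a limma adjusted p of 0.0457. The value was 0.0574 to 0.107 without any 1 library other than the 2D library of mouse 2 or the 3D library of mouse 5, and 0.0579 without quantile normalization. The cultures overlapped, with Myd88 at 10.9 FPKM in 2D mouse 2 and 11.5 FPKM in 3D mouse 5.

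The fourth list held 19 genes for receptors and partners, of which 16 were tested. Not all of them are partners of a member, since Fcgrt carries IgG. Limma called 3 higher (18.8%) and 6 lower (37.5%) of these 16, against 21.2% and 20.3% of all genes, with a median difference of -0.19. Slc22a17, described as a cell surface receptor for Lcn2, rose from 3.03 ± 1.81 to 10.8 ± 1.13 FPKM (SD, n = 4; limma's adjusted p = 0.0042). Vldlr, a lipoprotein receptor that can bind clusterin, rose from 7.64 ± 0.691 to 54.8 ± 7.31 FPKM (SD, n = 4; difference 2.85, limma's adjusted p = 1.9e-06). Plscr1, a membrane protein that binds Slpi, rose from 21.2 ± 9.41 to 98.1 ± 27.1 FPKM (SD, n = 4; limma's adjusted p = 4.2e-04).

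Lrp1, a broad endocytic receptor that takes up lactoferrin, fell from 71.5 ± 11.3 to 2.96 ± 3.11 FPKM (SD, n = 4), a difference of -4.46 (limma's adjusted p = 5.9e-04). Its 3D levels were 4.54 and 6.56 FPKM in mice 1 and 4 but 0.381 and 0.347 FPKM in mice 5 and 7. Fcgrt, the receptor that carries IgG across cells, fell from 27.5 ± 3.82 to 1.71 ± 0.833 FPKM (SD, n = 4; limma's adjusted p = 2.4e-05), and Anxa2 from 1106 ± 88.8 to 213 ± 68.1 FPKM (SD, n = 4; limma's adjusted p = 2.8e-04). The remaining falls that passed were those of Cubn, Mmp9 and Extl3. Mmp9, whose protein forms a complex with Lcn2, was at most 0.110 FPKM in 3D, and its limma adjusted p of 0.0397 became 0.0691 to 0.0887 without any 1 library other than the 2D library of mouse 4. That 2D library was at 0.0184 FPKM, within the 3D range.

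**Figure D4:**
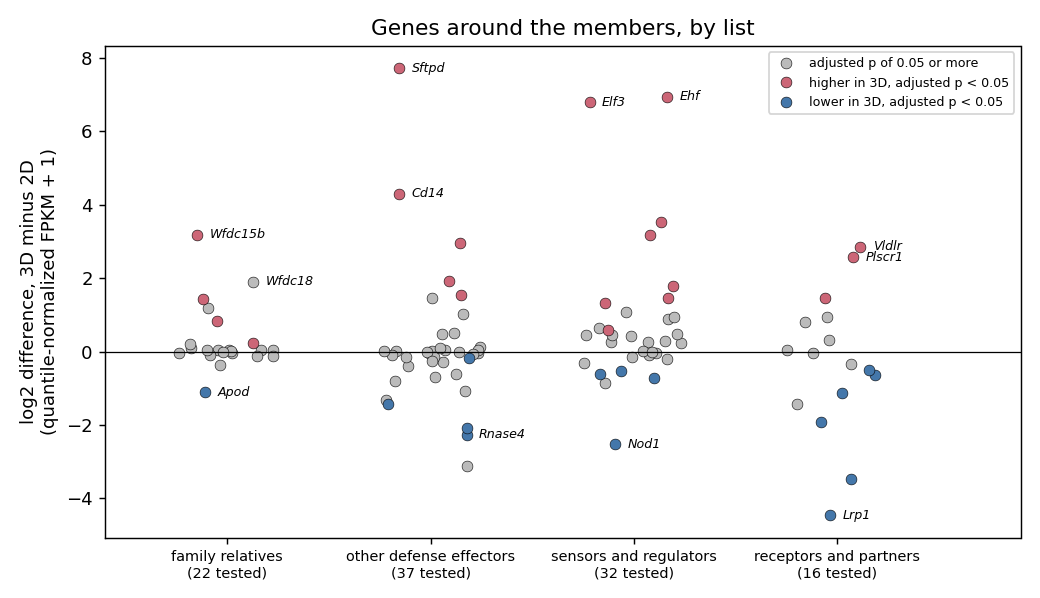
Log2 difference, 3D minus 2D, on quantile-normalized FPKM + 1 (y axis) for each tested gene of the 4 lists (x axis), with 1 point per gene, red or blue where limma's adjusted p was below 0.05 for a higher or lower level in 3D and grey otherwise; horizontal positions within a list are arbitrary. Sftpd, Ehf and Elf3 stand above the rest, at 7.72, 6.95 and 6.79, and Lrp1 lowest, at -4.46.

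When the mouse entered the fit as a block, leaving 1 residual degree of freedom, limma called 0 genes in any of the 4 lists. At an unadjusted p below 0.05, the block left 15% of all genes higher and 12.6% lower. In the lists these were 2 higher and 0 lower of 22 relatives, 6 and 4 of 37 effectors, 11 and 1 of 32 sensors and regulators, and 2 and 4 of 16 receptors and partners.

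Deviations of quantile-normalized log2(FPKM + 1) from the culture means were compared with those of Lcn2 over the 8 libraries. Among 9448 genes averaging 5 FPKM or more, the 3 most alike were Mir1894, Rbm4b and Ddb1, with Pearson's r of 0.990, 0.987 and 0.977. Mir1894 is a microRNA gene, and the limit of 300 nt used for the FPKM total was not set in this comparison. After this normalization Lcn2 was at 4492, 4717, 8252 and 4980 in mice 1, 4, 5 and 7 of the 3D group. Mouse 5 was thus highest and mouse 1 lowest, whereas mouse 1 was highest in the deposited FPKM. The 3 genes therefore follow the normalized order of Lcn2. The 8 libraries share 2 culture means, so few free points stand behind these correlations, and they are given as a description.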

How the data were processed

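RNA of 8 ADSC cultures (4 2D, 4 3D) was sequenced after rRNA depletion from directional libraries. The authors trimmed the reads (FASTX_Trimmer, BBMap), aligned them by TopHat (mm10 per the labels, the same assembly as GRCm38) and deposited Cufflinks FPKM values per gene symbol, without counts. Upper quartiles and maxima differed between libraries, so these values precede the quantile normalization that the methods name. Annotation and strand setting were not given in the sources used here.

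Depth was estimated from the spacing of low FPKM values in 875 genes that have 1 transcript, 3000 nt or longer, in GENCODE M21. Of the symbols, 95.8% matched that annotation. Between 70.2% and 81.2% of the low values per library lay within 0.15 of a whole fragment. Floors of 3 fragments use the longest transcript and cover counting error only.

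Genes at 0 in every library (5484) were left out. The other 18862 were quantile normalized, converted to log2(FPKM + 1) and fitted with limma 3.58.1 in R 4.3.3 (empirical Bayes with trend, no covariates, Benjamini-Hochberg over all genes, threshold 0.05). The fit was tested on simulated data. Each library is 1 culture, and mice 4 and 5 pair the cultures by the labels. Deviations of their libraries from the culture means correlated at -0.05 and -0.11 over 12577 genes. A replicate block for the mouse was an alternative, together with the values as deposited, a pseudocount of 0.1, a mean of at least 1 FPKM, no filter, no trend, a fit of mice 4 and 5 alone, and leaving out each library.

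The members and lists were chosen with earlier results of these data known. Named were the members, up to 5 rises and 5 falls per list by size among genes past the threshold, the cell type markers averaging at least 5 FPKM in a culture, and the 3 genes most like Lcn2. Other genes were named after their values were seen, and 1 gene that the rule covers is not reported here. Fabp4, Lpl and Pparg of the adipocyte list met that rule. Their means were 29.3, 18.7 and 6.04 FPKM in 2D and 0.0397, 0.0788 and 0.276 FPKM in 3D. Limma's adjusted p-values were 0.0058, 8.6e-04 and 1.0e-04. The 8 genes of that list summed to 0.0876 to 0.565 FPKM in 3D, and their 2D sums are given in the closing section. Promoters are those of RefSeq (GRCm38.p6).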

Additional observations from a re-analysis of the deposited data

Results flagged for a closer look

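Among 86 sets of 4 libraries examined, 10 held a library set apart from its nearest neighbour by more than Dixon's 95% critical share of the range. For normal values without ties, chance gives this in about 1 of 20 sets. Where the other libraries were all at 0, any value above 0 is flagged, so that rate does not apply and the count is not read. Chil1 was at 38.8 FPKM in mouse 1 of the 3D group and at most 5.61 in the other 3D libraries. In the 2D library of mouse 4, Ltf was at 0.0861, Wfdc3 at 0.365, Chil4 at 0.127 and Sftpd at 0.148 FPKM, each with 0 in the other 2D libraries. The same library held no Pglyrp1 (0 FPKM, against up to 0.127 in the others), and its 8 adipocyte marker genes summed to 141 FPKM against 18.4 to 29.4 in the other 2D libraries. In the 3D library of mouse 1, Tlr6 was at 0.629 and Mmp9 at 0.110 FPKM, against at most 0.0258 and 0 in the others. Apod was at 0.0366 FPKM in the 3D library of mouse 5 alone.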

How the results depend on the processing

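The median difference of the members was 5.07 and moved to 7.89 with a pseudocount of 0.1. The members were also run as deposited, with the replicate block, with mice 4 and 5 alone, and without each library. No member above 0 in any library changed direction in these runs. That is a description, since the members were chosen on this contrast. With the replicate block for the paired mice, limma called 0 genes in every count (all genes, higher and lower, and the 4 lists), against 2833 higher and 2383 lower genes at an unadjusted p below 0.05. The block leaves 1 residual degree of freedom. With only mice 4 and 5, the counts were 1788 higher and 1432 lower over all genes, 1 and 0 for the relatives, 2 and 2 for the effectors, 0 lower for the sensors and regulators, and 2 lower for the receptors and partners. The single lower relative became 2 with a pseudocount of 0.1, and 0 with a mean of at least 1 FPKM or with no filter. The lower sensors and regulators became 2 on the values as deposited. With each library left out, the lower relatives numbered 0 to 1, the higher effectors 4 to 8 and the lower effectors 2 to 4. The causes were not tested. Depth limits what can be said of Lyz1, Reg3g and other genes at or under 3 fragments.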

Other observations

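Trf, the serum transferrin gene and the closest relative of Ltf on the lists, ranged widely within both cultures. It was at 0.674, 399, 394 and 0.544 FPKM in mice 2, 3, 4 and 5 of the 2D group, and at 1293, 64.8, 22.7 and 3.39 FPKM in mice 1, 4, 5 and 7 of the 3D group (limma's adjusted p = 0.72). The acute phase genes Saa3 and Hp were likewise highest in the 2D libraries of mice 3 and 4, with Saa3 at 91.2 and 46.6 FPKM and Hp at 8.98 and 5.23 FPKM, but both were below 1 FPKM in every 3D library, where Lcn2 was highest. Saa3 had a limma adjusted p of 0.12. These genes were named after their values were seen.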
